A study of Mus musculus with 8 samples.

Results

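The CC chemokines are small secreted proteins, named for a pair of adjacent cysteines, that draw leukocytes along a concentration gradient. The 10 genes described are Ccl2, Ccl3, Ccl4, Ccl5, Ccl6, Ccl7, Ccl8, Ccl9, Ccl12 and Ccl22, taken by symbol from a deposited table of 23366 genes. Their transcripts were measured by RNA-seq in bone marrow-derived macrophages, which are macrophages grown in culture from marrow progenitors, here at passage 1 from mice of C57BL/6 background. The 4 groups of 2 libraries each were knock-in cells with LPS, untreated knock-in cells, wild-type cells with LPS and untreated wild-type cells. Knock-in cells carried the Lsd1SA/SA alleles, described by the submitters as a phosphorylation-defective version of LSD1, a histone demethylase. The treated groups had lipopolysaccharide (LPS), a component of the Gram-negative outer membrane, for 2 h at a labelled 1 mg/ml. The treatment protocol gives 24 h of serum starvation before LPS, and the same text stands for the untreated samples. The libraries held 40379258 to 55595160 reads. A level below is the deposited value of a library, in TMM-scaled CPM, a read count divided by a library size that was scaled to make libraries comparable. The labels do not tell whether a group's libraries came from separate mice or cultures, and p-values rest on their spread alone, which could be technical only.

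Macrophages are a main source of CC chemokines after they sense bacterial products through Toll-like receptors. Transcription of many of these genes is switched on by NF-kB, by AP-1 and, for some, by interferon-regulated factors. Secreted CC chemokines act on G protein-coupled receptors named CCR, most of which recognise several ligands. Ccl2, Ccl7 and Ccl12 encode monocyte chemoattractants that act through CCR2, and mouse Ccl8, of the same gene cluster, encodes a ligand of CCR8. Ccl3, Ccl4 and Ccl5 encode attractants of monocytes, T cells and natural killer cells, and the products of Ccl3 and Ccl5 act on CCR1. Ccl6 and Ccl9 are rodent genes for CCR1 ligands, and Ccl22 encodes a ligand of CCR4 that attracts regulatory and type 2 helper T cells. In the gene order of GENCODE vM21, Ccl2, Ccl7, Ccl12 and Ccl8 lie in one cluster of chromosome 11. Ccl5, Ccl9, Ccl6, Ccl3 and Ccl4 lie in a second cluster of chromosome 11, and Ccl22 lies on chromosome 8.

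The knock-in libraries with LPS stood apart from the other 6 in sex-linked transcripts. Xist was at 0.212 and 0.366 in the knock-in libraries with LPS, and at 315 to 437 in the other 6. Together, 4 Y-linked genes had 4993 and 5122 reads in the knock-in libraries with LPS and at most 2 reads in any other library. By these transcripts the cells of the knock-in LPS libraries were male and those of the remaining libraries female, and the labels give no sex. Each comparison that uses the knock-in libraries with LPS contrasts sex and animals as well as treatment or genotype, and these cannot be told apart. Whether these libraries carry the right labels cannot be settled from the transcripts either, so knock-in LPS stands throughout for the libraries so labelled. The comparisons of wild-type cells with and without LPS, and of untreated knock-in with untreated wild-type cells, do not use those libraries, and they are given below also without them in the fit. All 6 macrophage markers in the table were read, and their summed level was 5825 to 5999.98 in knock-in LPS, 6038 to 6090 in untreated knock-in, 6755 to 6791 in wild-type LPS and 5941 to 6072 in untreated wild-type libraries. The sum joins markers that moved in opposite directions. Fcgr1 averaged 913 in knock-in LPS and 257 in wild-type LPS, and Emr1 averaged 1098 and 1806. Between these groups the test described below called 2 markers higher and 4 lower in knock-in cells. Of all tested genes it called 38.5% higher and 36.8% lower. Kdm1a, the gene of LSD1, averaged 39.9 ± 0.801 in knock-in LPS, 33.1 ± 0.795 in untreated knock-in, 46.5 ± 1.01 in wild-type LPS and 32.5 ± 1.99 in untreated wild-type cells (SD, n = 2 each), which does not test the genotype label.

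In knock-in cells, LPS was followed by a rise of 7 of the 10 CC chemokine transcripts and a fall of 3, and the largest ratio of group means was 15.3-fold, for Ccl8. In wild-type cells, 8 of the 10 rose, Ccl4 by 51.3-fold, Ccl22 by 41.4-fold and Ccl2 by 28.9-fold, and Ccl8 did not pass the test. With LPS, knock-in libraries were lower than wild-type libraries for Ccl2, Ccl3, Ccl4, Ccl6, Ccl7, Ccl9, Ccl12 and Ccl22, and higher for Ccl5 and Ccl8. Without LPS, no member passed the test between knock-in and wild-type cells.

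**Figure D1:**
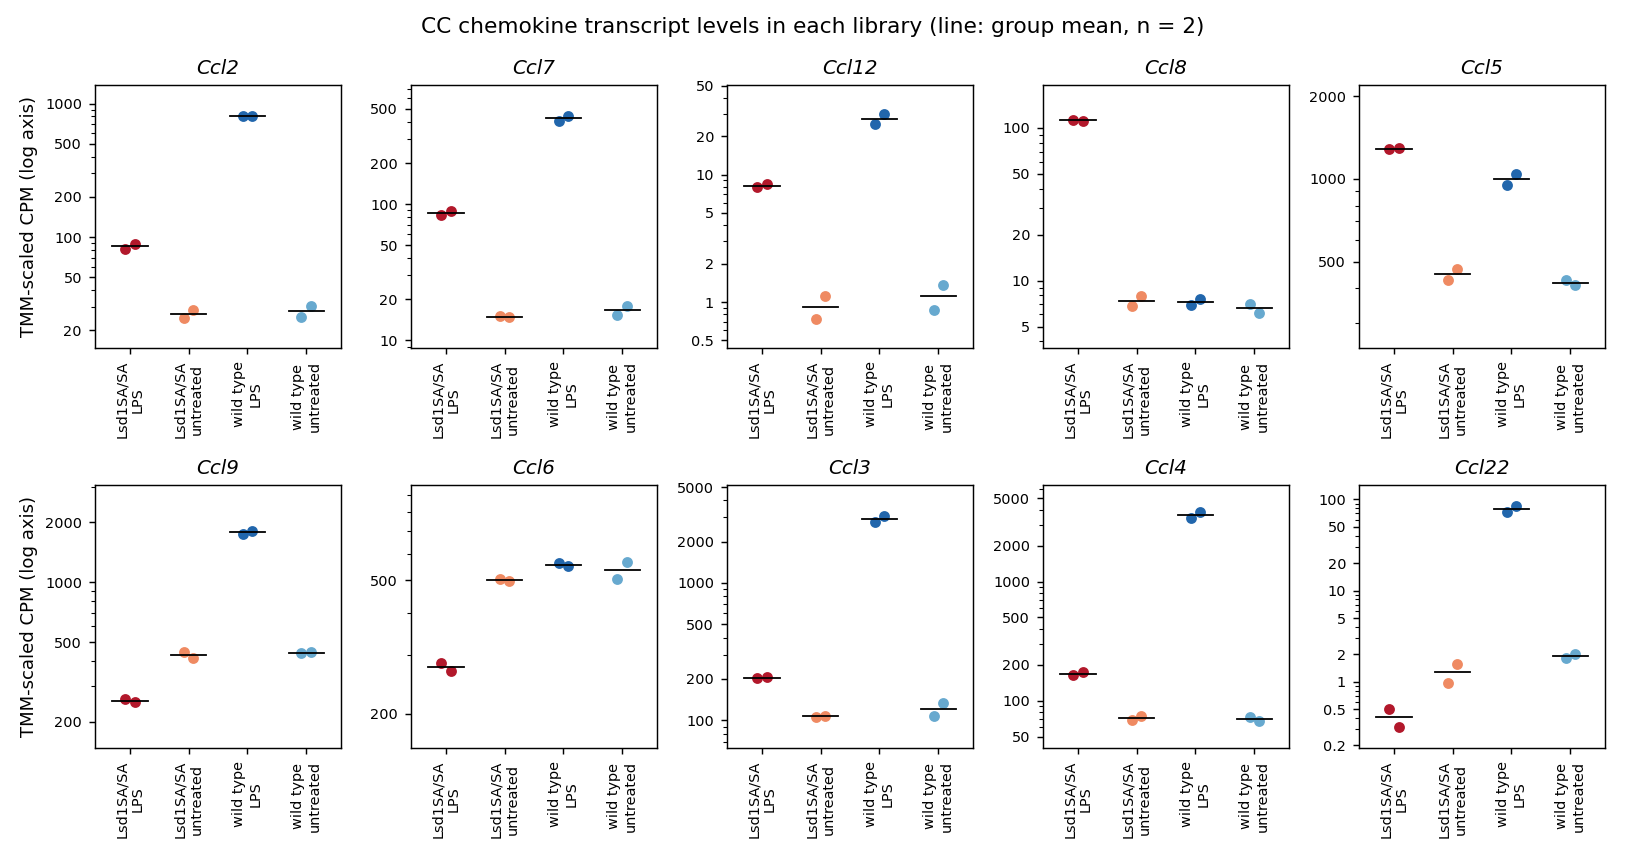
Level of each CC chemokine transcript (TMM-scaled CPM, log axis whose range differs by panel) in the 8 libraries, with knock-in (Lsd1SA/SA) groups left of wild-type groups and LPS left of untreated. Points are libraries and lines are group means (n = 2). The wild-type LPS points stand highest for 7 genes, where they do not overlap the points of any other group. The knock-in LPS points stand highest for Ccl8 and Ccl5, and for Ccl6 the knock-in LPS points stand lowest.

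The counts of members were read against the share of all 11919 tested genes called by limma at a Benjamini-Hochberg adjusted p under 0.05. In knock-in cells, all 10 members were called between LPS and untreated libraries, where 56.7% of all tested genes were called. The 7 higher members compare with 28.5% of all genes called higher, and the 3 lower members with 28.3% called lower. In wild-type cells, 8 of 10 members were called, all higher, where 57.6% of all genes were called, 26.8% as higher. After quantile normalization 35.4% of the wild-type calls over all genes were higher, against 46.6% in the values as deposited. Between knock-in and wild-type cells with LPS, all 10 members were called, where 75.4% of all genes were called. Of these, 2 members were higher, where 38.5% of all genes were higher, and 8 were lower, where 36.8% of all genes were lower. The shares called are high over the whole table, so being called says little about these genes, and their sizes are described instead. The members' median log2 change with LPS was 1.36 in knock-in cells, where that of all tested genes was 0.016. In wild-type cells the members' median was 4.17, where that of all genes was -0.032. Between knock-in and wild-type cells with LPS the members' median difference was -2.55, where that of all genes was 0.023. These log2 values are on the log2(value + 1) scale, which understates changes of low transcripts, and comparisons that use the same LPS libraries share them.

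The LPS effects of the genotypes were also tested against each other, as the effect in knock-in cells minus that in wild-type cells. All 10 members were called in this interaction, 2 of them positive and 8 negative, where 63.7% of all genes were called, 31.8% in each direction. The members' median was -2.46 and that of all genes was 0.013. The interaction rests on the knock-in LPS libraries and so carries the same difference of sex and animals.

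**Figure D2:**
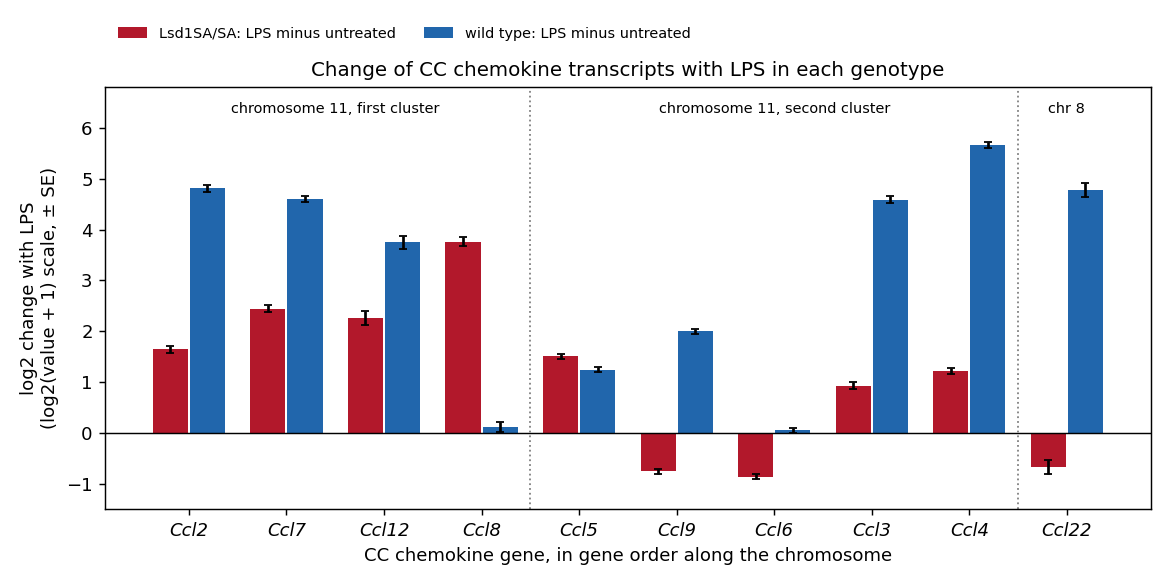
Change with LPS of each CC chemokine transcript, as log2 change on the log2(value + 1) scale, in knock-in (red, left bar) and wild-type (blue, right bar) cells, with genes in chromosomal order and dotted lines between clusters. Error bars are the SE of limma. The blue bars exceed 3.7 for 6 genes, the red bars stay below 2.5 for 9 genes, and Ccl8 alone among the 10 has a red bar of 3.76 beside a blue bar of 0.11.

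Among the monocyte chemoattractants, Ccl2, the main ligand of CCR2, was at 81.9 and 89.1 in knock-in LPS libraries and at 24.9 and 28.5 in untreated knock-in libraries. It was at 810.1 and 808 in wild-type LPS libraries and at 25.4 and 30.6 in untreated wild-type libraries. Both LPS groups were above their untreated groups without overlap, and the wild-type LPS libraries were highest. The log2 change with LPS was 1.64 ± 0.071 (SE) in knock-in cells (limma adjusted p = 1.43e-15) and 4.81 ± 0.071 in wild-type cells (limma adjusted p = 1.51e-25). With LPS, Ccl2 was 9.46-fold lower in knock-in than in wild-type cells (log2 difference -3.23, limma adjusted p = 5.02e-22).

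Ccl7, whose product acts on CCR2 and also on other CC receptors, was at 82.9 and 89.0 in knock-in LPS libraries and at 15.1 and 14.8 in untreated knock-in libraries. It was at 409.8 and 440.0 in wild-type LPS libraries and at 15.3 and 17.8 in untreated wild-type libraries. The order of the groups was that of Ccl2, with a smaller gap between the LPS groups. LPS was followed by a 5.75-fold rise in knock-in cells (log2 change 2.45 ± 0.066, limma adjusted p = 1.98e-19) and a 25.7-fold rise in wild-type cells (4.60 ± 0.066, limma adjusted p = 9.65e-26). With LPS it was 4.94-fold lower in knock-in than in wild-type cells (log2 difference -2.29, limma adjusted p = 1.19e-19).

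Ccl12, a mouse CCR2 ligand, was the lowest of these genes. It was at 8.004 and 8.42 in knock-in LPS libraries and at 0.735 and 1.11 in untreated knock-in libraries. It was at 25.0 and 29.8 in wild-type LPS libraries and at 0.873 and 1.37 in untreated wild-type libraries. LPS libraries were above untreated ones in both genotypes, with ratios of 8.91 in knock-in cells and 24.5 in wild-type cells. The log2 changes were 2.27 ± 0.134 (limma adjusted p = 5.57e-13) in knock-in cells and 3.75 ± 0.134 (limma adjusted p = 1.04e-17) in wild-type cells. With LPS it was 3.33-fold lower in knock-in cells (log2 difference -1.62, limma adjusted p = 1.16e-10), the smallest ratio between the LPS groups among Ccl2, Ccl7 and Ccl12. As Ccl12 was low, its change depended on the pseudocount, and edgeR on the recovered reads gave 3.12 in knock-in and 4.67 in wild-type cells.

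Ccl8 did not follow its neighbours. It was at 112 and 112 in knock-in LPS libraries and at 6.77 and 7.90 in untreated knock-in libraries. It was at 6.88 and 7.53 in wild-type LPS libraries and at 7.07 and 6.11 in untreated wild-type libraries. Only the knock-in LPS libraries were high, and the other 3 groups lay within 6.11 to 7.90. In knock-in cells the log2 change was 3.76 ± 0.093 (limma adjusted p = 3.47e-20). In wild-type cells it was 0.11 ± 0.093 (limma adjusted p = 0.309). With LPS, Ccl8 was 15.5-fold higher in knock-in than in wild-type cells (log2 difference 3.78, limma adjusted p = 4.32e-21). The 2 LPS effects differed by 3.65 (limma adjusted p = 2.31e-17), with the knock-in effect the larger.

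Markers of other cell types were read in the same libraries. The summed monocyte, stromal, and mast cell and basophil markers were highest in knock-in LPS, as Ccl8 was. The summed neutrophil markers were highest in wild-type LPS. The 5 monocyte markers, among them Ly6c2, Ly6c1, Ccr2 and Plac8, had a summed level of 341 to 359 in knock-in LPS, 46.3 to 46.4 in untreated knock-in, 49.2 to 52.1 in wild-type LPS and 45.1 to 49.6 in untreated wild-type libraries. Most of the knock-in LPS sum was Ly6c2, which averaged 239 there. Of these 5 markers, 4 were called higher in the knock-in libraries with LPS than in those without, and Ccr2, the receptor gene that marks classical monocytes, averaged 7.30 and 8.74 in those groups. Stromal markers, of which 5 of 7 were tested, had a summed level of 54.3 to 54.4 in knock-in LPS, 16.1 to 17.1 in untreated knock-in, 14.5 to 14.8 in wild-type LPS and 13.0 to 14.2 in untreated wild-type libraries. All 5 tested stromal markers were likewise called higher with LPS in knock-in cells, and Lum, a stromal proteoglycan gene, was at or near 0 in every library. Pdgfrb, 1 of the 5, rose less in knock-in cells (log2 change 0.46) than in wild-type cells (1.46). With LPS, Pdgfrb was lower in knock-in than in wild-type cells (log2 difference -0.75, limma adjusted p = 3.26e-05), where the other 4 were called higher. Mast cell and basophil markers summed to 80.8 to 82.8 in knock-in LPS, 33.1 to 34.0 in untreated knock-in, 50.9 to 52.1 in wild-type LPS and 32.9 to 33.8 in untreated wild-type libraries, with 5 of 6 called higher with LPS in each genotype. Between the LPS groups, 3 of the 6 were called higher in knock-in cells and 1, Kit, was called lower (log2 difference -0.92). Neutrophil markers summed to 422 to 432 in knock-in LPS, 304 to 315 in untreated knock-in, 641 to 667 in wild-type LPS and 308 to 319 in untreated wild-type libraries, with 5 of 7 called higher with LPS in each genotype. Between the LPS groups, 5 of the 7 neutrophil markers were called lower in knock-in cells and 2 higher. The 2 higher ones were Mmp8 (log2 difference 0.99) and Elane (0.56). T and B cell markers summed to 12.2 or less in every library. Of all tested genes, 28.5% were called higher with LPS in knock-in cells and 26.8% in wild-type cells. Between the LPS groups, 38.5% of all tested genes were called higher and 36.8% lower in knock-in cells. With most genes of the table called, these marker counts describe the lists only. The part of these markers in the result was not tested. In bulk samples a change in the number of expressing cells and a change in RNA per cell cannot be told apart, here or for any member below.

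The sequences before the starts of Ccl8 and Ccl12 are shown because these neighbouring genes had different patterns. RefSeq promoter windows on GRCm38.p6 were at hand for 6 of the 10 members, namely Ccl3, Ccl6, Ccl8, Ccl9, Ccl12 and Ccl22. They give the 250 bases before the start, in the direction of transcription. Capitals mark matches to the TATA-box letters TATAAA. The Ccl8 window is chr11:82114935-82115184 and the Ccl12 window is chr11:82101595-82101844, both on the plus strand.
Ccl8: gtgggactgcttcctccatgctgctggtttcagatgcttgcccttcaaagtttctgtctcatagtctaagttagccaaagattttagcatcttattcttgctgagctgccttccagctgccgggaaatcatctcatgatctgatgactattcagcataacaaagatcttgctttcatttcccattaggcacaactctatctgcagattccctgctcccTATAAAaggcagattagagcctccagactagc
Ccl12: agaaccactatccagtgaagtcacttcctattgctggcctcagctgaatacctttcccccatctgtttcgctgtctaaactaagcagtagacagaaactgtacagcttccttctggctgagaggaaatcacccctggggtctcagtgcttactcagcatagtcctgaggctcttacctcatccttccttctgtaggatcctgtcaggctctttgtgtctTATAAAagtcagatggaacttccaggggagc
Over an alignment of the full windows, Ccl8 and Ccl12 had 55.6% identical columns, the highest of the 15 pairs among the 6 windows, which ranged from 43.7% for Ccl3 and Ccl12. TATAAA lay 32 to 27 bases before the Ccl8 start and 31 to 26 bases before the Ccl12 start, and 12.3% of 32536 promoter windows of this length held it on either strand. Neither window held a match to the NF-kB consensus, to the AP-1 letters TGANTCA, to the interferon-response letters (GAAA, any 2 bases, GAAA) or to the STAT letters TTCNNNGAA, on either strand. Matches are letters in a window, and no match says only that these letters are not in this window.

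Of the T cell and monocyte attractants of the second cluster, Ccl3 was at 203 and 207 in knock-in LPS libraries and at 106 and 107 in untreated knock-in libraries. It was at 2797 and 3058 in wild-type LPS libraries and at 107 and 135 in untreated wild-type libraries. The wild-type LPS libraries were far above the other 3 groups, and the knock-in LPS libraries were next. LPS was followed by a 1.92-fold rise in knock-in cells (log2 change 0.93 ± 0.067, limma adjusted p = 2.21e-11) and a 24.2-fold rise in wild-type cells (4.59 ± 0.067, limma adjusted p = 1.20e-25). With LPS it was 14.3-fold lower in knock-in than in wild-type cells (log2 difference -3.83, limma adjusted p = 5.55e-24).

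Ccl4, the neighbour of Ccl3 on the opposite strand, whose product attracts the same kinds of leukocytes, was at 164 and 174 in knock-in LPS libraries and at 69.6 and 74.8 in untreated knock-in libraries. It was at 3443 and 3821 in wild-type LPS libraries and at 73.6 and 68.0 in untreated wild-type libraries. Ccl4 reached the highest value of any member in these data, in wild-type cells with LPS. Its log2 change was 1.21 ± 0.055 in knock-in cells (limma adjusted p = 3.57e-15) and 5.66 ± 0.055 in wild-type cells (limma adjusted p = 7.18e-29). With LPS it was 21.5-fold lower in knock-in than in wild-type cells (log2 difference -4.42, limma adjusted p = 7.34e-27). The gene models of Ccl3 and Ccl4 overlap in RefSeq on GRCm38.p6, though not in GENCODE vM21, and the sources used here do not say whether reads were counted by strand, so some reads of one may stand with the other.

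Ccl5, whose product acts on CCR1 and CCR3, among other receptors, differed from Ccl3 and Ccl4. It was at 1281 and 1293 in knock-in LPS libraries and at 430.2 and 472 in untreated knock-in libraries. It was at 952 and 1039 in wild-type LPS libraries and at 428 and 411 in untreated wild-type libraries. Both LPS groups were above both untreated groups, and the knock-in LPS libraries were highest without overlap. LPS was followed by a 2.85-fold rise in knock-in cells (log2 change 1.51 ± 0.052, limma adjusted p = 1.43e-17) and a 2.37-fold rise in wild-type cells (1.24 ± 0.052, limma adjusted p = 2.19e-16). With LPS, Ccl5 was 1.29-fold higher in knock-in than in wild-type cells (log2 difference 0.37, limma adjusted p = 7.06e-07). The LPS effects differed by 0.27 (limma adjusted p = 0.00266), a size that depended on the scaling. After quantile normalization the wild-type change was 0.76, the difference between the LPS groups 0.87 and the interaction 0.76.

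Ccl9, a rodent CCR1 ligand, moved in opposite directions in the genotypes. It was at 259 and 249.9 in knock-in LPS libraries and at 444 and 417 in untreated knock-in libraries. It was at 1742 and 1811 in wild-type LPS libraries and at 439 and 448 in untreated wild-type libraries. The knock-in LPS libraries were below all untreated libraries, and the wild-type LPS libraries were above them. The log2 change with LPS was -0.76 ± 0.046 in knock-in cells (limma adjusted p = 1.10e-12) and 2.00 ± 0.046 in wild-type cells (limma adjusted p = 1.28e-21). With LPS it was 6.98-fold lower in knock-in than in wild-type cells (log2 difference -2.80, limma adjusted p = 1.67e-24). After quantile normalization the wild-type change of Ccl9 was 1.36, the difference between the LPS groups -2.22 and the interaction -2.15.

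Ccl6, the neighbour of Ccl9 and likewise a rodent CCR1 ligand, was at 283 and 268 in knock-in LPS libraries and at 505 and 497 in untreated knock-in libraries. It was at 563 and 550.5 in wild-type LPS libraries and at 505 and 568 in untreated wild-type libraries. The knock-in LPS libraries were the low ones, and the wild-type groups overlapped. Ccl6 fell with LPS in knock-in cells (log2 change -0.86 ± 0.051, limma adjusted p = 6.45e-13), and its change in wild-type cells was 0.056 ± 0.051 (limma adjusted p = 0.368). The sign of the wild-type change depended on the scaling, with -0.36 after quantile normalization (limma adjusted p = 4.67e-06), and on single libraries, with -0.029 without untreated wild-type replicate 1 and 0.14 (limma adjusted p = 0.0207) without replicate 2. With LPS, Ccl6 was 2.02-fold lower in knock-in than in wild-type cells (log2 difference -1.01, limma adjusted p = 9.16e-15), and -0.63 after quantile normalization. Ccl6 overlaps a noncoding gene on the opposite strand in GENCODE vM21, and the same limit on strand holds, as for Ccl2 and the gene that overlaps it.

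The windows before Ccl9 and Ccl6 are shown because these neighbours differed in their wild-type response to LPS. Both lie on the minus strand, and the sequences run in the direction of transcription. The Ccl9 window is chr11:83578637-83578886 and the Ccl6 window is chr11:83593088-83593337. Capitals mark matches to the NF-kB consensus, to TGANTCA and to TATAAA, each also as its reverse complement. The NF-kB consensus was GGGRNWYYCC, where R is A or G, Y is C or T, W is A or T and N is any base.
Ccl9: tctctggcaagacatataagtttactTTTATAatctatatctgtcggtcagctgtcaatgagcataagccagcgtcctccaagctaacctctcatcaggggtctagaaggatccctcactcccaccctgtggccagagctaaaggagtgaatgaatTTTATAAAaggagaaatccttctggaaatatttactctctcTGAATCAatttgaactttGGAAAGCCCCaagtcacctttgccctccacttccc
Ccl6: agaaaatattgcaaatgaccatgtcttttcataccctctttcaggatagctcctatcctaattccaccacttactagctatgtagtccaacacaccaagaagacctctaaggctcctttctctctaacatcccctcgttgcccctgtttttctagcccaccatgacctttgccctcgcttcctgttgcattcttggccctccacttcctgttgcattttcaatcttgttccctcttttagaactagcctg
The Ccl9 window held GGAAAGCCCC, a match to the reverse complement of the NF-kB consensus, 35 to 26 bases before the start. It also held TGAATCA, a match to TGANTCA, 53 to 47 bases before the start. Of 32536 promoter windows of this length, 3.92% held the NF-kB consensus and 6.73% held TGANTCA on either strand. Ccl9 also had 3 matches to TATAAA, of which those at 94 to 89 and 92 to 87 bases overlap. The Ccl6 window held no match to any of the 5 motifs searched, nor did those of Ccl3 and Ccl22. The Ccl6 and Ccl9 windows had 47.2% identical columns, within the range of the other pairs. The interferon-response letters and TTCNNNGAA had no match in any of the 6 windows, where 2.98% and 7.04% of all windows held them. The members with the largest wild-type changes, such as Ccl3 and Ccl22, included some whose windows lacked the NF-kB letters, and nothing follows from that about the factor.

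Ccl22, the CCR4 ligand, was low in every group but wild-type LPS. It was at 0.501 and 0.318 in knock-in LPS libraries, from 26 and 18 reads, and at 0.965 and 1.57 in untreated knock-in libraries, from 42 and 85 reads. It was at 73.5 and 85.2 in wild-type LPS libraries and at 1.82 and 2.01 in untreated wild-type libraries. The knock-in LPS libraries were lowest and the wild-type LPS libraries highest, with no overlap between groups. In wild-type cells the log2 change was 4.78 ± 0.135 (limma adjusted p = 7.46e-20). In knock-in cells it was -0.68 ± 0.135 (limma adjusted p = 1.72e-04), a low transcript whose fall was -1.68 in edgeR on the recovered reads. With LPS the ratio of means was 194-fold lower in knock-in than in wild-type cells (log2 difference -5.83, limma adjusted p = 1.27e-21), the largest among the members. In edgeR this difference was -7.65 and the wild-type change 5.41. Dendritic cell markers, of which 3 of 6 were tested, moved the same way, with summed levels of 19.7 to 21.8 in knock-in LPS, 58.3 to 61.4 in untreated knock-in, 86.8 to 89.0 in wild-type LPS and 57.2 to 61.6 in untreated wild-type libraries. With LPS all 3 fell in knock-in cells, where 28.3% of all tested genes were called lower. All 3 rose in wild-type cells, where 26.8% of all tested genes were called higher. The part of these markers in the result was not tested.

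Untreated knock-in and wild-type cells were then compared for the same 10 genes. None was called by limma, by edgeR or by DESeq2, which gave no adjusted p for 3 of them. Over all tested genes limma called 0.00839%, which is 1 gene of 11919, and 1617 had an unadjusted p under 0.05. The members' log2 differences ran from -0.38 for Ccl22 to 0.13 for Ccl8, with a median of -0.079. Unadjusted p-values were under 0.05 for 2 members, Ccl3 and Ccl22. For Ccl22 the 95% interval of the difference was -0.65 to -0.096 (limma adjusted p = 0.242), and its untreated knock-in libraries lay below its untreated wild-type libraries. For Ccl3 the interval was -0.31 to -0.032 (limma adjusted p = 0.273). For Ccl4, Ccl5, Ccl6 and Ccl9, the better covered of the others, the intervals lay within -0.20 to 0.21. Without untreated wild-type replicate 1, limma called 481 genes, among them Ccl3 (-0.33), Ccl6 (-0.18) and Ccl7 (-0.24), which were lower in knock-in cells. A miss of the threshold does not show that the genotypes were alike. With both knock-in LPS libraries left out of the fit, still 0 members were called between untreated groups, and 8 were called between wild-type LPS and untreated libraries.

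Levels of different members were compared per kilobase of transcript, with the length of a single GENCODE vM21 transcript of each gene. That transcript was picked by its name, and other transcripts of the gene were not considered. The summed level of the 10 members per kilobase was 3665 ± 30.8 in knock-in LPS, 1656 ± 56.0 in untreated knock-in, 13800 ± 808 in wild-type LPS and 1645 ± 35.5 in untreated wild-type cells (SD, n = 2 each). The members took 0.252 and 0.254% of all reads in knock-in LPS libraries, 0.170 and 0.170% in untreated knock-in libraries, 0.950 and 1.01% in wild-type LPS libraries and 0.172 and 0.181% in untreated wild-type libraries. Knock-in cells with LPS thus held more of these transcripts than untreated cells of either genotype, and fewer than wild-type cells with LPS. As these sums rest on assumed lengths, only their order by group and the order of distant members should be read.

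**Figure D3:**
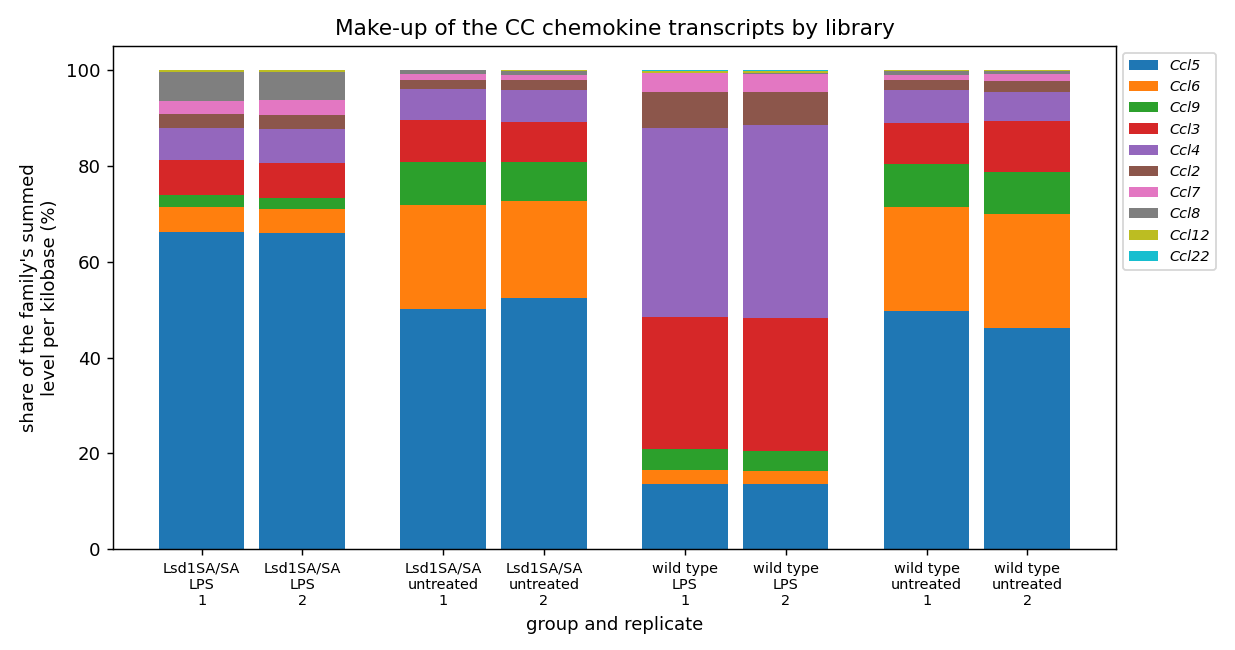
Share (%) of each CC chemokine in the family's summed level per kilobase, one bar per library, with knock-in libraries left of wild-type libraries and LPS left of untreated. Ccl5 fills 66.0% of the mean knock-in LPS bar and 13.6% of the wild-type LPS bar, where Ccl4 and Ccl3 together take most of the height.

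The make-up of the family differed between the LPS groups. Ccl5 made 66.0% of the summed level in knock-in LPS, 51.2% in untreated knock-in, 13.6% in wild-type LPS and 48.0% in untreated wild-type cells. Ccl4 made 6.98% in knock-in LPS, 6.61% in untreated knock-in, 39.9% in wild-type LPS and 6.53% in untreated wild-type cells. Ccl3 made 7.29% in knock-in LPS, 8.42% in untreated knock-in, 27.7% in wild-type LPS and 9.59% in untreated wild-type cells. Wild-type cells with LPS were thus the one group in which Ccl4 and Ccl3 stood above Ccl5. Ccl6 made 5.22% in knock-in LPS, 21.0% in untreated knock-in, 2.81% in wild-type LPS and 22.6% in untreated wild-type cells. Ccl8 made 5.98% in knock-in LPS and 0.866% in untreated knock-in cells, against 0.102% in wild-type LPS and 0.785% in untreated wild-type cells.

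In knock-in LPS cells the order per kilobase was Ccl5, Ccl3, Ccl4, Ccl8, Ccl6, Ccl7, Ccl2, Ccl9, Ccl12 and Ccl22, from 2419 for Ccl5 to 0.185 for Ccl22. Ccl7 and Ccl2 overlapped there between libraries, and no other neighbours in that order did. Overlap between libraries leaves out any error in the assumed lengths, so the order of close neighbours should not be read from it. In untreated knock-in cells the order was Ccl5, Ccl6, Ccl9, Ccl3, Ccl4, Ccl2, Ccl7, Ccl8, Ccl12 and Ccl22, from 848 to 0.572, with an overlap of Ccl9 and Ccl3. In wild-type LPS cells it was Ccl4, Ccl3, Ccl5, Ccl2, Ccl9, Ccl7, Ccl6, Ccl12, Ccl22 and Ccl8, from 5503 for Ccl4 to 14.1 for Ccl8, with no overlap of neighbours. In untreated wild-type cells it was the untreated knock-in order with Ccl3 and Ccl9 exchanged, which overlapped there too, from 788 for Ccl5 to 0.865 for Ccl22. Ccl8 held the fourth place in knock-in LPS cells and the last in wild-type LPS cells.

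Of the other CC chemokine ligands, 14 were in the table and 3 passed the filter on low values. Ccl24, an eotaxin, averaged 0.0369 in knock-in LPS, 0.384 in untreated knock-in, 1.32 in wild-type LPS and 0.334 in untreated wild-type cells. It rose with LPS in wild-type cells (log2 change 0.80, limma adjusted p = 1.61e-04) and fell in knock-in cells (-0.41, limma adjusted p = 0.0336). Ccl25 rose in knock-in cells (0.57, limma adjusted p = 0.00193) and Ccl27a fell there (-0.44, limma adjusted p = 0.0211), both from levels under 3. Ccl11, the gene between Ccl7 and Ccl12, had 0 reads in every library, which allows a level of up to 0.0529 to 0.0754 by library at a floor of 3 reads, for counting error only. The sum of the 14 was at most 4.39 in any library, so the 10 members held nearly all CC chemokine reads.

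The receptors for these ligands were lower and moved less. The table held 11 CC receptors, of which 7 were tested. In knock-in cells 2 rose and 3 fell with LPS, in wild-type cells 5 rose and 1 fell, and with LPS 1 was higher and 5 lower in knock-in than in wild-type cells. Of all tested genes, 28.5% rose and 28.3% fell in knock-in cells, 26.8% rose and 30.7% fell in wild-type cells, and 38.5% were higher and 36.8% lower between the LPS groups. Ccr1, the receptor of Ccl3, Ccl5, Ccl6 and Ccl9, was at 20.3 and 17.7 in knock-in LPS and 24.6 and 24.3 in untreated knock-in libraries. It was at 57.6 and 54.4 in wild-type LPS and 24.4 and 26.0 in untreated wild-type libraries. Its log2 change was -0.36 in knock-in cells (limma adjusted p = 2.73e-04) and 1.12 in wild-type cells (limma adjusted p = 2.66e-12), the opposite directions that Ccl9 also had.

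Ccr3, a receptor of Ccl5 and eotaxins, averaged 10.4 ± 1.12 in knock-in LPS, 15.2 ± 0.703 in untreated knock-in, 30.7 ± 0.694 in wild-type LPS and 15.4 ± 0.602 in untreated wild-type cells (SD, n = 2 each). It too fell in knock-in cells (log2 change -0.51, limma adjusted p = 2.39e-05) and rose in wild-type cells (0.95, limma adjusted p = 1.11e-09). Ccr7 and Ccr9 were under 2.4 in every library, and with LPS both were lower in knock-in than in wild-type cells (log2 difference -1.02 for Ccr7, limma adjusted p = 1.97e-06, and -0.87 for Ccr9, limma adjusted p = 2.22e-05). Ccr2 was chosen after its values were seen. Ccr2, the receptor of Ccl2, Ccl7 and Ccl12, had a log2 change of -0.23 in knock-in cells (limma adjusted p = 0.0684) and fell by 0.32 on the log2 scale in wild-type cells (limma adjusted p = 0.0149).

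Ccrl2, an atypical receptor of the CC receptor gene cluster that does not drive migration itself, was at 49.1 and 45.6 in knock-in LPS and 18.1 and 17.0 in untreated knock-in libraries. It was at 766.5 and 804 in wild-type LPS and 16.5 and 14.6 in untreated wild-type libraries. It rose in both genotypes, by log2 1.38 in knock-in cells (limma adjusted p = 5.60e-15) and 5.57 in wild-type cells (limma adjusted p = 1.49e-27), and with LPS it was lower in knock-in than in wild-type cells (log2 difference -4.02, limma adjusted p = 8.18e-25). These sizes lie close to those of Ccl4.

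**Figure D4:**
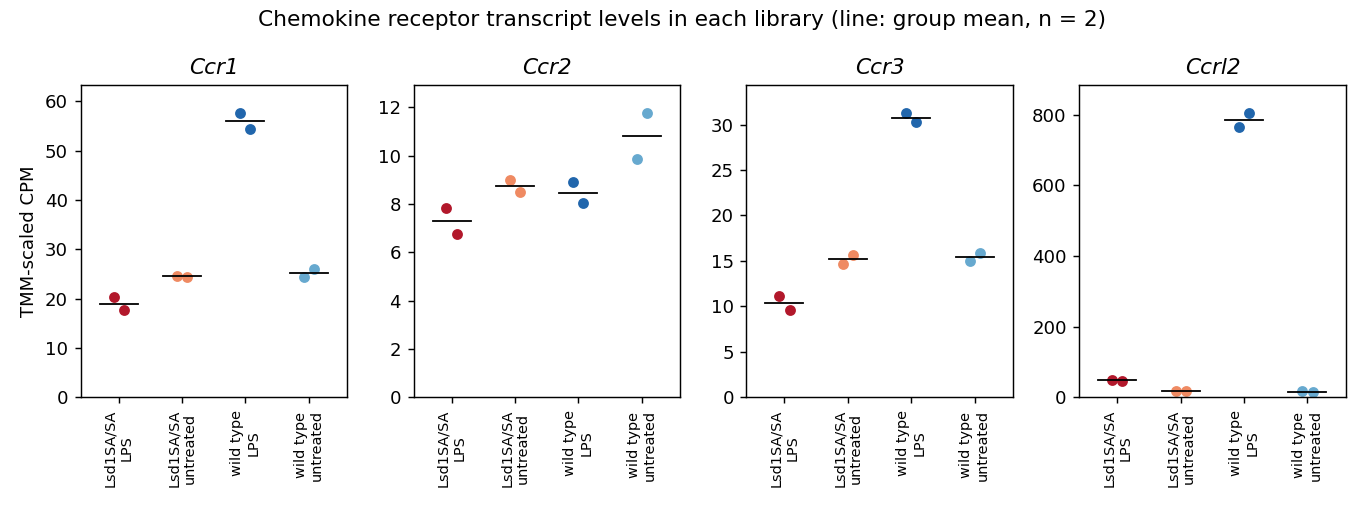
Levels (TMM-scaled CPM, linear axis from 0 whose range differs by panel) of 3 CC receptor transcripts and of the atypical receptor Ccrl2 in the 8 libraries, with knock-in groups left of wild-type groups and LPS left of untreated. Points are libraries and lines are group means (n = 2). The wild-type LPS points stand highest for Ccr1, Ccr3 and Ccrl2, and the knock-in LPS points stand lowest for Ccr1, Ccr2 and Ccr3.

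Of 11 genes for receptor signalling and desensitization, 5 rose and 1 fell in knock-in cells, where 28.5% of all tested genes rose and 28.3% fell. In wild-type cells 7 rose and 2 fell, where 26.8% of all genes rose and 30.7% fell, and with most genes of the table called these counts describe the list only. Rgs16, a regulator that shortens G protein signalling, rose by log2 2.29 in wild-type cells (limma adjusted p = 3.85e-12), and its change in knock-in cells was -0.29 (limma adjusted p = 0.121). Rgs16 was low, with means of 0.146 in knock-in LPS, 0.409 in untreated knock-in, 5.78 in wild-type LPS and 0.382 in untreated wild-type cells. The log2(value + 1) scale understates changes at such levels. Rgs1, of the same family, rose in both, by 0.77 in knock-in (limma adjusted p = 1.46e-12) and 1.54 in wild-type cells (limma adjusted p = 5.14e-19). Rgs2 went the other way, with a rise of 0.29 in knock-in cells (limma adjusted p = 3.18e-05) and a change of -1.38 in wild-type cells (limma adjusted p = 1.09e-17). Arrb2, the gene of an arrestin that ends receptor signalling, rose by 0.59 in knock-in cells (limma adjusted p = 5.51e-11) and 0.18 in wild-type cells (limma adjusted p = 0.00142).

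Of 17 genes for transcription factors and regulators known to act at chemokine genes, 12 rose with LPS in knock-in cells, with a median of 0.37, where 28.5% of all tested genes rose and their median was 0.016. In wild-type cells 10 rose and 4 fell, with a median of 0.79, where 26.8% of all genes rose, 30.7% fell and their median was -0.032. With LPS, 6 were higher and 9 lower in knock-in than in wild-type cells, where 38.5% of all genes were higher and 36.8% lower. Nfkbia, the gene of the NF-kB inhibitor that NF-kB itself induces, rose by log2 0.17 in knock-in cells (limma adjusted p = 0.0155) and 4.68 in wild-type cells (limma adjusted p = 2.99e-27). Rel, an NF-kB subunit gene, had a change of -0.024 in knock-in cells (limma adjusted p = 0.84) and rose by 3.52 in wild-type cells (limma adjusted p = 7.33e-21). Irf1, an interferon regulatory factor gene, rose by 0.48 in knock-in cells (limma adjusted p = 8.70e-09) and 3.73 in wild-type cells (limma adjusted p = 1.03e-26). Ifnb1, which encodes interferon beta, rose by 0.56 in knock-in cells (limma adjusted p = 9.32e-04) and 5.50 in wild-type cells (limma adjusted p = 3.18e-21). Ifnb1 had 24 and 32 reads in knock-in LPS libraries and 2 and 0 in untreated knock-in libraries. It had 0 reads in both untreated wild-type libraries, so the log2(value + 1) scale understates its changes.

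Irf7, a factor induced by interferon that is also of that list and was chosen after its values were seen, rose by 1.34 in knock-in cells (limma adjusted p = 7.10e-18) and changed by -0.24 in wild-type cells (limma adjusted p = 4.61e-05). As for Ccl8, the knock-in LPS libraries were the high ones, with a mean of 1456 in knock-in LPS, 574 in untreated knock-in, 463 in wild-type LPS and 549 in untreated wild-type cells.

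Of 5 proteases known to cleave chemokines, 4 were tested. Mmp12, the macrophage metalloelastase, was lower with LPS in knock-in cells by -1.85 (limma adjusted p = 4.39e-18), and its change in wild-type cells was 0.12 (limma adjusted p = 0.0861). Mmp14, a membrane metalloproteinase, rose by 1.56 in knock-in cells (limma adjusted p = 9.34e-19) and 2.19 in wild-type cells (limma adjusted p = 1.86e-22). Mmp9, a gelatinase, rose by 0.60 in knock-in cells (limma adjusted p = 1.07e-04) and 0.71 in wild-type cells (limma adjusted p = 8.65e-06). Mmp2, another gelatinase, rose by 0.49 in knock-in cells (limma adjusted p = 0.00504), and its change in wild-type cells was 0.11 (limma adjusted p = 0.537).

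For each member, the 2 other named genes whose centred log2 levels over the 8 libraries lay closest were found among 9572 candidates, by root mean square difference. Ccl8 lay closest to Plac8 (0.16) and Ly6a (0.21), and Plac8 is one of the monocyte markers above. Ccl7 lay closest to Rsad2 (0.16) and Ifi205 (0.20), and Ccl12 to Oasl1 (0.14) and Mx2 (0.18). Ccl4 lay closest to Csrnp1 (0.10) and Ccrl2 (0.16), and Ccl3 to Jdp2 (0.18) and Flrt3 (0.21). Id3 (0.34) was one of those closest to Ccl2, and Ccl22 lay closest to Egr1 (0.20) and Nfkbiz (0.30). Ccl9 lay closest to Fam102b (0.054) and Il1rn (0.080), Ccl6 to Calr (0.046) and Anp32e (0.050), and Ccl5 to Nt5c3 (0.10) and Fgl2 (0.10). The measure is a description over 8 libraries in which the group means set most of the pattern. Within the family, the nearest member was Ccl3 for Ccl2 (0.32), Ccl12 for Ccl7 (0.36) and Ccl3 for Ccl4 (0.42). Ccl8 was 1.24 from its nearest member, Ccl5, and Ccl5 was 1.02 from its own nearest member, Ccl6.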

How the data were processed

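RNA-seq libraries of 8 samples were grouped by their labels. The deposited values are a signal per gene and library that the authors made from read counts, in the form of TMM-scaled CPM, as read from the values. Per the submitters' processing notes, the genome was mm9 and the tools included TopHat2 2.0.9, bedtools and edgeR. How reads were counted, with which annotation and whether by strand, is not given in the sources used here. All values above 0 were whole multiples of what 1 read is worth (100% within a tolerance of 0.001), with library factors of 0.866 to 1.07. Of the read numbers of 1 to 100, 64.4% were even, which counting in pairs would give.

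The test was limma 3.58.1 (R 4.3.3; eBayes with a variance trend, 2-sided) on values transformed as log2(value + 1). A gene was tested if at least 2 libraries reached a value of 1, which left 11919. All 8 libraries shared a model of 4 group means with 4 residual and 19.1 prior degrees of freedom. Benjamini-Hochberg adjustment covered all tested genes within each of 5 comparisons, with calls at an adjusted p under 0.05. Alternatives were edgeR 4.0.16 (quasi-likelihood) and DESeq2 1.42.0 on the recovered reads, other pseudocounts, filters and scalings, a replicate block, and libraries left out. All members were named, with up to 4 genes of each list (the largest changes among those called), Kdm1a and the 2 nearest genes of each member. The members and lists were chosen with earlier results of these data known. Transcript lengths and gene order come from GENCODE vM21 on GRCm38 and promoter windows from RefSeq on GRCm38.p6. No mm9 coordinates are given. Some genes that these rules name are left out.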

Additional observations from a re-analysis of the deposited data

Results flagged for a closer look

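The LPS effect in knock-in cells differed from that in wild-type cells for each of the 10 members, by the interaction term of limma at an adjusted p under 0.05. The interaction (knock-in effect minus wild-type effect, log2) was -5.46 for Ccl22, -4.45 for Ccl4, -3.66 for Ccl3, -3.17 for Ccl2, -2.75 for Ccl9, -2.16 for Ccl7, -1.48 for Ccl12 and -0.92 for Ccl6. It was 0.27 for Ccl5 and 3.65 for Ccl8, the members with a larger effect in knock-in cells. The highest adjusted p among the 10 was that of Ccl5, 0.00266. Of all tested genes 63.7% were called in the same term. The knock-in libraries with LPS came from cells of the other sex, so sex and genotype cannot be told apart in these values.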

How the results depend on the processing

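Every member kept its direction and its side of the threshold in the LPS comparison of knock-in cells (190 alternative values), in the comparison of the LPS groups (190) and in the interaction (180). In wild-type cells, Ccl6 turned to -0.36 after quantile normalization and to -0.029 without untreated wild-type replicate 1, and it passed the threshold at 0.14 (limma adjusted p = 0.0207) without untreated wild-type replicate 2. Ccl8 passed it after quantile normalization (0.29, limma adjusted p = 0.0109), so that 10 members were called there, and 8 to 9 when a library was left out. The interaction of Ccl22 was -7.09 in edgeR. Ccl22 in knock-in cells changed by -1.41 with a pseudocount of 0.1, -1.68 in edgeR and -1.64 in DESeq2.

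Between untreated groups, differences near 0 changed sign when a library was left out. Over such fits Ccl2 ranged from -0.19 to 0.069 (0.032 without knock-in replicate 1), Ccl12 from -0.31 to 0.030 (0.0021 without it) and Ccl4 from -0.029 to 0.084 (-0.023 without knock-in replicate 2). Ccl9 ranged from -0.089 to 0.00073, the highest without knock-in replicate 2. The highest values of Ccl2 and Ccl12 and the lowest of Ccl4 came without wild-type replicate 2. Leaving out a library gave 0 to 3 called members and 1 to 481 called genes in all, with the highest of both without wild-type replicate 1 (Ccl3 -0.33, Ccl6 -0.18, Ccl7 -0.24). Over all genes, 0 were called with no filter (1735 with an unadjusted p under 0.05), 18 with a robust trend and 64 by DESeq2, where limma and edgeR called 1. The cause was not tested.

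The deviations of same-numbered replicates correlated at -0.11 to 0.13 over 6 pairs of groups. With 2 libraries per group this does not tell whether same-numbered replicates shared a mouse, culture or batch. A replicate block called 6736 genes for LPS in knock-in cells, 6857 in wild-type cells, 8962 between LPS groups, 1 between untreated groups and 7582 in the interaction, and it changed no member's call. After quantile normalization the summed level per kilobase was 3910 in knock-in LPS, 1767 in untreated knock-in, 10810 in wild-type LPS and 1761 in untreated wild-type cells.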
